A study of Mus musculus with 6 samples.

Results

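The genes of glycolysis and of pyruvate handling were examined in mouse primary white adipocytes that carried either miR-182-5p mimic or a control mimic. The set holds 33 of the 22609 genes listed in the read count files. They were chosen by symbol, for their known role, from glucose uptake down to the entry of pyruvate into mitochondria, and all 33 symbols were found. The choice was made with earlier results of these data known. RNA was sequenced from 3 control samples (titled CtriWAT1 to CtriWAT3) and 3 miR-182-5p samples (titled miR182iWAT1 to miR182iWAT3). All 6 came from the stromal-vascular fraction of inguinal fat of male C57BL6 mice, differentiated in culture, and the labels give an age of 3 weeks, whereas the study's methods give a slightly older age for the mice used for primary culture. The study's methods name no deletion or transgene in the mice used for isolating the stromal-vascular fraction. The labels name a control vector, miR182 overexpression and electroporation, whereas the study's methods describe a synthetic miRNA mimic and a lipid reagent. Below, the groups are called mimic control and mimic. Neither source says whether the 3 samples of a group were separate cultures from separate mice, so the p-values measure the spread between these samples, which may be technical.

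Glycolysis splits glucose into pyruvate in the cytosol. Glucose enters through transporters, is trapped by hexokinases, is committed to breakdown by phosphofructokinase and is oxidised in the lower steps. Pyruvate is then either reduced to lactate and exported, or taken into mitochondria, where pyruvate dehydrogenase turns it into acetyl-CoA and pyruvate carboxylase turns it into oxaloacetate. In white adipocytes the carboxylase route feeds the export of citrate for fatty acid synthesis and the making of glycerol backbones for triglycerides. A miRNA pairs through its seed, bases 2 to 8 from the 5′ end, with matching bases in target mRNAs, mostly in the 3′-UTR, and usually lowers their level.

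The mature miR-182-5p of RefSeq lies at chr6:30165962-30165986 on the minus strand of GRCm38.p6. It is printed because its seed, in capitals, defines the 7-base match that was searched for in the 33 genes. The study's methods print another sequence for the mature miRNA, which was not used here.
miR-182-5p: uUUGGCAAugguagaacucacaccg

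The match to the seed, TTGCCAA, was present in the longest annotated 3′-UTR of 5 of the 33 genes (15.2%), against 1454 of the 11432 genes tested that have a 3′-UTR (12.7%). Adding an A opposite the first base of the miRNA gives the longer match TTGCCAAA, held by 2 of the 33 genes (6.06%) and by 602 of the 11432 genes (5.27%). The genes are the glucose transporter Slc2a1, the aldolase Aldoc, the lactate transporter Slc16a3, the pyruvate dehydrogenase kinase Pdk4 and pyruvate carboxylase (Pcx). The 28 bases around each match are printed with the match in capitals, read 5′ to 3′ on the strand of the gene. They are among the places where the transfected miRNA could pair with a member. Shorter matches, and matches in the 5′-UTR or the coding sequence, were not searched. Positions of the capitals are on GRCm38, in order chr4:119136811-119136817, chr11:78327201-78327207, chr11:120959473-120959479, chr6:5484738-5484744, chr6:5484525-5484531 and chr19:4621512-4621518.
Slc2a1: gacacttgccttctTTGCCAAgctaatc
Aldoc: gagtgtctagaagcTTGCCAAgggctat
Slc16a3: cctgggagtctaatTTGCCAAtctcacc
Pdk4 upstream: aaagggagataaaaTTGCCAAagtgatc
Pdk4 downstream: tcaaatttgtctagTTGCCAAttgtctt
Pcx: cacatattcatctcTTGCCAAataaggg

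The longer match is the upstream site of Pdk4 and the site of Pcx. Slc2a1, Aldoc and Slc16a3 hold the 7-base match alone. Of these 5 genes, Slc2a1, Aldoc and Slc16a3 rose and Pdk4 and Pcx fell, as given below with their values. The other 28 genes have no match in the 3′-UTR that was searched, and 9 of the 11 members that fell are among them.

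Between 25869810 and 28796712 reads were counted on genes per library, with medians of 26338310 in the mimic control and 27989470 in the mimic. Chi-square values per degree of freedom between replicates were 2.13 to 7.19, so no pair of libraries was alike within counting noise. The adipocyte label was checked against 12 adipocyte markers, and all 12 were detected in every library. Their summed level was 8109 to 8494 CPM (read counts scaled to the size of each library, with TMM factors) in the mimic control and 5468 to 6192 CPM in the mimic, with 9 of the 12 genes lower and Lep higher. The 10 fibroblast or progenitor markers, led by collagens, summed to 40381 to 42198 CPM in the mimic control and 35423 to 36629 CPM in the mimic, with 7 of the 9 tested lower. The defining leukocyte gene Ptprc had 0 to 4 reads per library, and macrophage markers summed to 12.4 to 15.7 CPM over all 6 libraries, groups overlapping. Endothelial markers summed to 8.13 to 9.27 CPM in the mimic control and 5.09 to 5.74 CPM in the mimic, a difference carried by Tek (mean 6.05 and 2.43 CPM), while Kdr was at 1.59 and 2.14 CPM. Skeletal muscle markers summed to 26.1 to 27.5 CPM and 36.2 to 39.7 CPM, a sum carried by Acta1, while Ckm, Myh4 and Myod1 were at 0 in all 6 libraries. Thermogenic markers summed to 31.2 to 32.8 CPM and 23.9 to 25.7 CPM, a difference carried by Cox7a1 (mean 24.3 and 17.7 CPM). Of the 4 tested, 1 was lower and 3 did not pass, and Ucp1 had 0 to 6 reads. In these bulk samples fewer cells of a type and less RNA per cell cannot be told apart, and the part of the marker differences in the results below was not tested.

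With the mimic, the glucose transporter Slc2a1, the hexokinases Hk1 and Hk2, the phosphofructokinase subunits Pfkl and Pfkp and the lactate exporter Slc16a3 were among the higher members. Among the lower members were Pfkfb3, Ldhb, Pdk2, Pdk4, the pyruvate dehydrogenase subunits Pdha1, Pdhb and Dlat, and Pcx. Of the 33 genes, 32 had enough reads for the test. Eno1 had 0 to 2 reads per library and was not tested. In edgeR's quasi-likelihood test, adjusted by Benjamini-Hochberg over 13117 genes, 13 of the 32 were higher with the mimic (40.6%), 11 were lower (34.4%) and 8 did not pass an adjusted p of 0.05. Among all genes tested 46.7% passed, 23.2% higher and 23.5% lower. Because earlier results were known when the members were chosen, these shares are not an unbiased contrast. The median log2 fold change was 0.08 over the 32 genes and -0.0043 over all genes tested. A change of at least 1.5-fold as well was met by 2 members in the higher direction (Hk1 and Slc16a3, against 1.97% of all genes tested) and by 3 in the lower direction (Ldhb, Pdk4 and Pcx, against 5.48%). Leaving out miR-182-5p sample 1 brought Hk1 to a log2 fold change of 0.58, just under the 1.5-fold limit of 0.585, and left 1 higher member. The counts of members past the adjusted p were 11 to 14 higher and 9 to 11 lower when each library was left out in turn. The groups did not overlap for 12 of the 13 higher and all 11 lower members, and did for the higher Pfkfb4. Among all genes tested the groups did not overlap for 54.8%, and for 2947 of the 3037 higher and 2989 of the 3087 lower genes. The 33 genes summed to 6935 to 7352 CPM in the mimic control and 6761 to 6994 CPM in the mimic, so the groups overlapped in the total. This sum is not scaled by length. Its largest terms, by mean CPM in the mimic control and the mimic, were Aldoa (1684 and 1782), Pcx (1193 and 655) and Ldha (943 and 883). Gapdh (2.04 and 2.45) and Eno1, with few reads, add little to it.

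**Figure D1:**
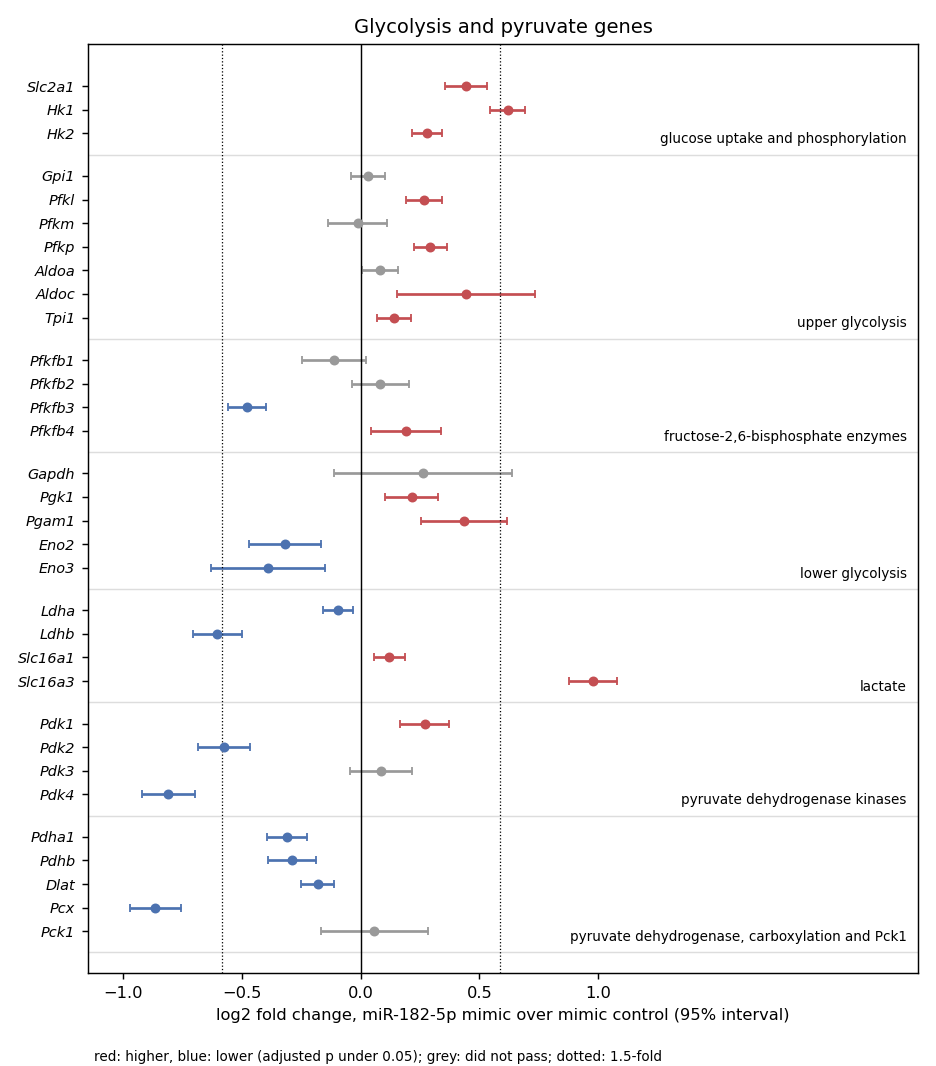
Log2 fold change of the 32 tested genes, mimic over mimic control, on the x axis, with points for the estimate and bars for its 95% interval, genes grouped by step from top to bottom, and dotted lines at 1.5-fold. The 3 uptake and phosphorylation genes lie right of 0, Slc16a3 lies farthest right at 0.98, and Pcx farthest left at -0.87.

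Slc2a1, Hk1 and Hk2, the 3 members of glucose uptake and phosphorylation, rose. Each step holds few genes, and 23.2% of all genes tested rose and 23.5% fell, so counts per step only describe the members. Slc2a1 encodes GLUT1, the glucose transporter of basal uptake (chr4:119108711-119137983, GRCm38, plus strand). It was measured at 119, 117 and 115 CPM in mimic control samples 1 to 3 and at 171, 155 and 151 CPM in mimic samples 1 to 3. The groups did not overlap, and sample 1 was the highest of the mimic group. The log2 fold change was 0.44 ± 0.041 (SE, n = 3 per group), with an edgeR adjusted p of 8.14e-07, or 1.36-fold (95% interval 1.28 to 1.45).

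Hexokinases phosphorylate glucose and so keep it in the cell. Hk1, the widely expressed form that binds mitochondria (chr10:62268855-62379908, minus strand), was at 130, 128 and 125 CPM in the control samples and at 206, 190 and 192 CPM in the mimic samples. Hk2, the insulin-responsive form of muscle and fat, was at 169, 161 and 163 CPM and at 202, 195 and 200 CPM. Neither gene had overlapping groups. The log2 fold change was 0.62 ± 0.034 (SE) for Hk1 and 0.28 ± 0.030 for Hk2, with edgeR adjusted p of 5.19e-09 and 3.68e-06. Per kilobase of the longest transcript, the 2 genes together went from 59.6 ± 1.26 to 81.9 ± 2.59 CPM per kb (SD, n = 3), and Hk1 made up 50.03% ± 0.533 of that sum in the control and 55.9% ± 0.757 in the mimic (exact permutation test, two-sided, p = 0.1). A p of 0.1 is the smallest that 3 against 3 samples allow, and it holds for every share below unless another is given. The size of a share depends on the length used. Longest transcripts have 4278 bases for Hk1 and 5513 for Hk2, against exon unions of 8532 and 5969.

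Upstream, from glucose-6-phosphate to triose phosphates, 4 of 7 genes rose and none fell, against 23.2% and 23.5% of all genes tested. Phosphofructokinase, the committing enzyme, is built from liver (Pfkl), muscle (Pfkm) and platelet (Pfkp) subunits. Pfkl was at 361, 351 and 327 CPM in the control samples and 410, 414 and 426 CPM in the mimic samples. Pfkp was at 106, 103 and 104 CPM and at 132, 128 and 123 CPM. Both rose without overlap of the groups, by log2 fold changes of 0.27 ± 0.035 (SE) and 0.29 ± 0.032, with edgeR adjusted p of 2.63e-05 and 4.84e-06. Pfkm had 45.4 ± 1.17 CPM in the control and 45.0 ± 4.05 CPM in the mimic (SD), a log2 difference of -0.01 with a 95% interval of -0.14 to 0.11. Per length, Pfkl remained the main form at 69.4% ± 0.779 and 70.7% ± 0.324 of the subunit mRNA. The share of Pfkm was 11.8% ± 0.171 and 9.87% ± 0.735, and that of Pfkp 18.8% ± 0.636 and 19.5% ± 0.972 (exact permutation test, p = 0.3). The exon union has 13401 bases for Pfkp against 4145 in its longest transcript, and 3340 against 2879 for Pfkm. The order of Pfkp and Pfkm therefore depends on the length used.

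Aldolase cleaves the sugar into triose phosphates, and triose phosphate isomerase (Tpi1) interconverts these. Tpi1 was at 410, 402 and 378 CPM in the control samples and 447, 427 and 435 CPM in the mimic samples, so the groups did not overlap but lay close (log2 fold change 0.14, edgeR adjusted p = 0.00365). Aldoc, the brain form of aldolase, was low throughout, at 3.97, 3.14 and 2.95 CPM and at 4.93, 4.59 and 4.14 CPM. Its log2 fold change of 0.44 ± 0.14 (SE) had an edgeR adjusted p of 0.0151, which became 0.0609 without control sample 2 and 0.0712 without control sample 3. Aldoa, the main form, made up 99.9% of aldolase mRNA per length in both groups (exact permutation test, p = 0.2). It was at 1740, 1703 and 1610 CPM and at 1765, 1753 and 1829 CPM, without overlap, and its log2 difference of 0.08 had an edgeR adjusted p of 0.0694. By DESeq2 the adjusted p of Aldoa was 0.0218 and by limma-voom 0.036. Gpi1, glucose-6-phosphate isomerase, was at 307 to 338 CPM in the control and 324 to 334 CPM in the mimic, with a log2 difference of 0.03 and a 95% interval of -0.042 to 0.10.

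The Pfkfb genes encode the enzymes that make and break down fructose 2,6-bisphosphate, the strongest activator of phosphofructokinase. Of the 4 genes 1 rose and 1 fell, against 23.2% and 23.5% of all genes tested. Pfkfb3, the form with the highest kinase activity (chr2:11471433-11554077, minus strand), was at 265, 282 and 265 CPM in the control samples and at 183, 199 and 201 CPM in the mimic samples. It fell by 0.48 ± 0.038 on the log2 scale (SE, edgeR adjusted p = 1.90e-07), so the level fell by 28.3%. Pfkfb4 was at 25.3, 21.3 and 23.3 CPM and at 25.3, 26.2 and 28.3 CPM. The lowest mimic sample of Pfkfb4 lay just under the highest control sample. Its log2 fold change of 0.19 had an edgeR adjusted p of 0.0327, and it did not pass without control sample 2 (0.158), control sample 3 (0.076) or mimic sample 3 (0.117). Pfkfb1, the liver and muscle form, had a log2 difference of -0.11 (edgeR adjusted p = 0.158). Pfkfb2, the heart form, had one of 0.08 (edgeR adjusted p = 0.256). As 1416 bases of its exons overlap those of Yod1 and Gm29427, reads there may have been set aside as ambiguous. Per length, Pfkfb3 went from 62.4% ± 1.01 to 54.5% ± 0.441 of the mRNA of the 4 genes, and each of the other 3 took a larger share in every mimic sample than in any control sample.

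**Figure D2:**
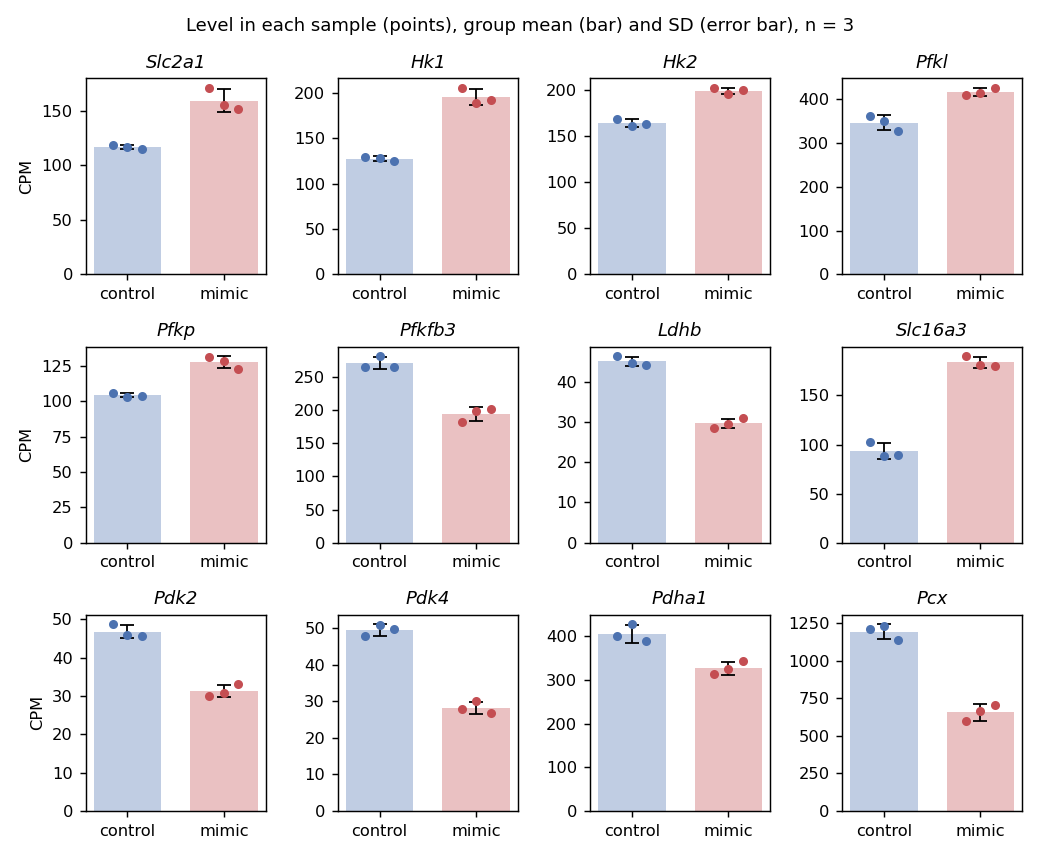
CPM (y axis, from 0, with its own range in each panel) of 12 members in the 3 mimic control and 3 mimic samples, drawn as points over bars for the group mean with error bars for the SD. All 12 are among the members past the adjusted p whose groups do not overlap, and members with overlap are not shown. Among all genes tested the groups did not overlap for 54.8%. Slc16a3 lies at 88.1 to 102 CPM against 180 to 190 CPM and Pcx at 1138 to 1228 CPM against 595 to 702 CPM.

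The lower steps of glycolysis gave 2 higher and 2 lower genes among the 5 tested, against 23.2% and 23.5% of all genes tested. It is here that the counts may be least complete. Gapdh oxidises glyceraldehyde-3-phosphate, Pgk1 and Pgam1 carry the phosphate on, and enolases (Eno1, Eno2, Eno3) form phosphoenolpyruvate. Reads that align to more than one place were kept apart from the genes (19363264 to 21673840 alignments per library). In the GENCODE M21 transcripts on GRCm38, 82.5% of the 50-base windows of Gapdh also occur in other genes, 213 of those 218 being pseudogenes. The share was 72.2% for Eno1, 68.0% for Pgk1, 41.5% for Pgam1, 30.3% for Pdhb and 27.0% for Ldhb, and 0 for 18 of the 33 genes. Gapdh, an abundant mRNA in most cells, had only 46 to 75 reads per library, and Eno1 0 to 2. Reads from shared windows cannot be assigned to a single gene, so the levels of these genes can understate their mRNA, by an amount that was not measured. Pgk1, with a share of 68.0%, still had 694 to 957 reads per library. Why Eno1 had so few was not tested. Exons of Gpi1, Pfkp and Pdha1 overlap those of genes on the opposite strand over 741, 748 and 603 bases. Those of Pfkm overlap Gm26513 and Senp1 over 359 bases. It is not given whether counting used the strand, so reads there may have been set aside in HTSeq's tally of ambiguous reads.

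**Figure D3:**
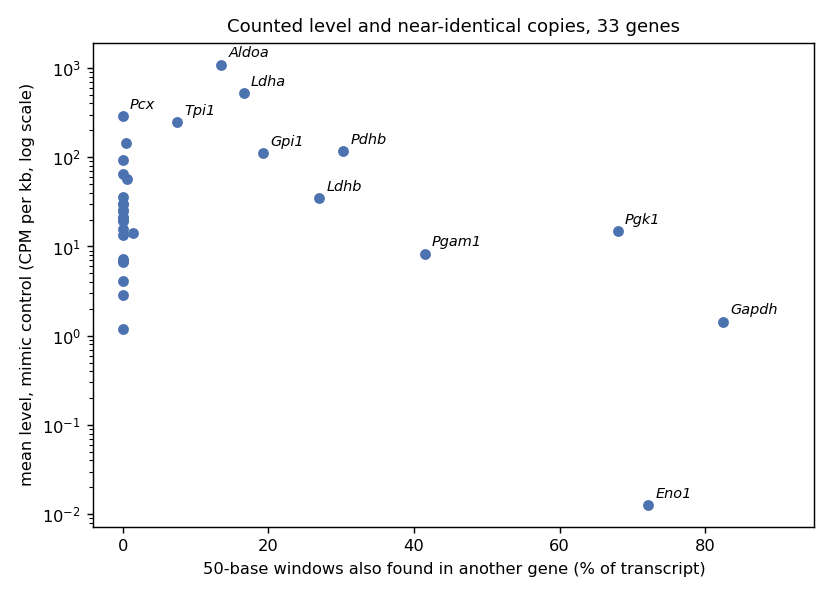
Mean level in the mimic control (y axis, CPM per kb, log scale) against the share of 50-base windows of the longest transcript found in another gene (x axis, percent) for the 33 genes, each a point. Gapdh and Eno1, at 82.5% and 72.2%, lie at 1.44 and 0.0128 CPM per kb, whereas Aldoa, at 13.5%, lies at 1087.

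Pgk1 was at 27.3, 26.6 and 26.9 CPM in the control samples and 32.8, 30.1 and 30.8 CPM in the mimic samples, a log2 fold change of 0.21 (edgeR adjusted p = 0.00353). Pgam1 was at 15.3, 16.5 and 12.6 CPM and at 20.4, 18.8 and 20.8 CPM, a log2 fold change of 0.43 ± 0.085 (SE, edgeR adjusted p = 0.000744). Groups did not overlap for either gene. Eno2, the neuronal enolase, fell from 19.996, 18.9 and 18.5 CPM to 14.6, 16.9 and 14.6 CPM (log2 fold change -0.32, edgeR adjusted p = 0.00192). Eno3, the muscle enolase, fell from 6.44, 6.93 and 5.67 CPM to 4.59, 4.55 and 5.35 CPM (log2 fold change -0.39, edgeR adjusted p = 0.0103), and without control sample 2 its adjusted p was 0.0548. Gapdh had a log2 difference of 0.26 with a 95% interval of -0.11 to 0.64 (edgeR adjusted p = 0.237). Shares of the 3 enolases are not given, because the main form Eno1 had only 0 to 2 reads per library.

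Among the lactate genes the exporter Slc16a3 rose most of the 32 genes tested, while both lactate dehydrogenase subunits fell. Slc16a3 encodes MCT4, the lactate exporter of glycolytic cells (chr11:120948480-120960868, plus strand). It was at 102, 88.1 and 89.2 CPM in the control samples and at 190, 181 and 180 CPM in the mimic samples, and control sample 1 was the highest of its group. The log2 fold change was 0.98 ± 0.047 (SE, edgeR adjusted p = 1.19e-09), 1.97-fold with a 95% interval of 1.84 to 2.11. Slc16a1, which encodes MCT1 and carries lactate and pyruvate in both directions, was at 116, 110 and 110 CPM and at 122, 123 and 120 CPM, a log2 fold change of 0.12 (edgeR adjusted p = 0.00558). Per length, the sum of both transporters went from 46.8 ± 2.56 to 69.9 ± 1.48 CPM per kb (SD), and Slc16a3 went from 45.9% ± 1.34 to 60.6% ± 0.703 of it. Per length, Slc16a1 was the more abundant mRNA in all 3 control samples and Slc16a3 in all 3 mimic samples.

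Lactate dehydrogenase is a tetramer of A and B subunits, with B rich in oxidative tissues. Ldhb (chr6:142490249-142507957, minus strand) was at 46.4, 44.7 and 44.1 CPM in the control samples and 28.6, 29.5 and 30.9 CPM in the mimic samples. The groups lay far apart relative to their spread (log2 fold change -0.60 ± 0.048 SE, edgeR adjusted p = 2.05e-07), and the level fell by 34.2%. Ldha was at 951, 958 and 921 CPM and at 892, 867 and 891 CPM, a log2 fold change of -0.09 (edgeR adjusted p = 0.0159). The fall of Ldha did not pass without control sample 1 (0.0505), control sample 2 (0.0638) or mimic sample 2 (0.102). Per length, Ldhb made up 6.23% ± 0.126 of the subunit mRNA in the control and 4.46% ± 0.171 in the mimic. The fold limit of 1.5 was missed by Ldhb without control sample 1 or mimic sample 1, at log2 fold changes of -0.58 in each case.

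The 4 pyruvate dehydrogenase kinases phosphorylate and switch off pyruvate dehydrogenase, and their mRNAs moved in different directions. Pdk1, the form induced by low oxygen, was at 105, 104 and 91.3 CPM in the control samples and 116, 126 and 121 CPM in the mimic samples (log2 fold change 0.27 ± 0.048 SE, edgeR adjusted p = 0.000393). Pdk2, the widely expressed form, was at 48.7, 45.9 and 45.6 CPM and at 29.97, 30.9 and 33.2 CPM (log2 fold change -0.58 ± 0.051 SE, edgeR adjusted p = 6.23e-07). Pdk4, the form induced by fasting and fatty acids (chr6:5483351-5496309, minus strand), was at 47.9, 51.0 and 49.8 CPM and at 27.8, 30.1 and 26.9 CPM. The groups of all 3 genes were apart, and Pdk4, which holds both of the Pdk4 seed matches printed above, fell by 43.0% (log2 fold change -0.81 ± 0.052 SE, edgeR adjusted p = 2.00e-08). Pdk3 was at 27.5 to 31.0 CPM and 28.8 to 32.3 CPM, with overlapping groups and a log2 difference of 0.09 (95% interval -0.047 to 0.22).

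Per length, the 4 kinase mRNAs together went from 67.9 ± 2.56 to 59.7 ± 0.758 CPM per kb (SD, n = 3, exact permutation test, p = 0.1). The make-up of that sum differed between the groups. In the control Pdk2 had 30.6% ± 0.623, Pdk1 28.4% ± 1.28, Pdk4 21.0% ± 1.25 and Pdk3 19.98% ± 0.882. In the mimic Pdk1 led with 39.0% ± 1.23, followed by Pdk3 with 24.1% ± 1.69, Pdk2 with 23.4% ± 1.05 and Pdk4 with 13.6% ± 0.739. Neighbours in those orders did not all differ beyond their spread: Pdk4 and Pdk3 overlapped in the control, and Pdk3 and Pdk2 in the mimic. The orders also depend on the length used, since the exon union of Pdk1 has 7779 bases against 5185 in its longest transcript. By mean CPM, not scaled by length, Pdk1 already led in the control, at 100 against 49.6 for Pdk4 and 46.7 for Pdk2.

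**Figure D4:**
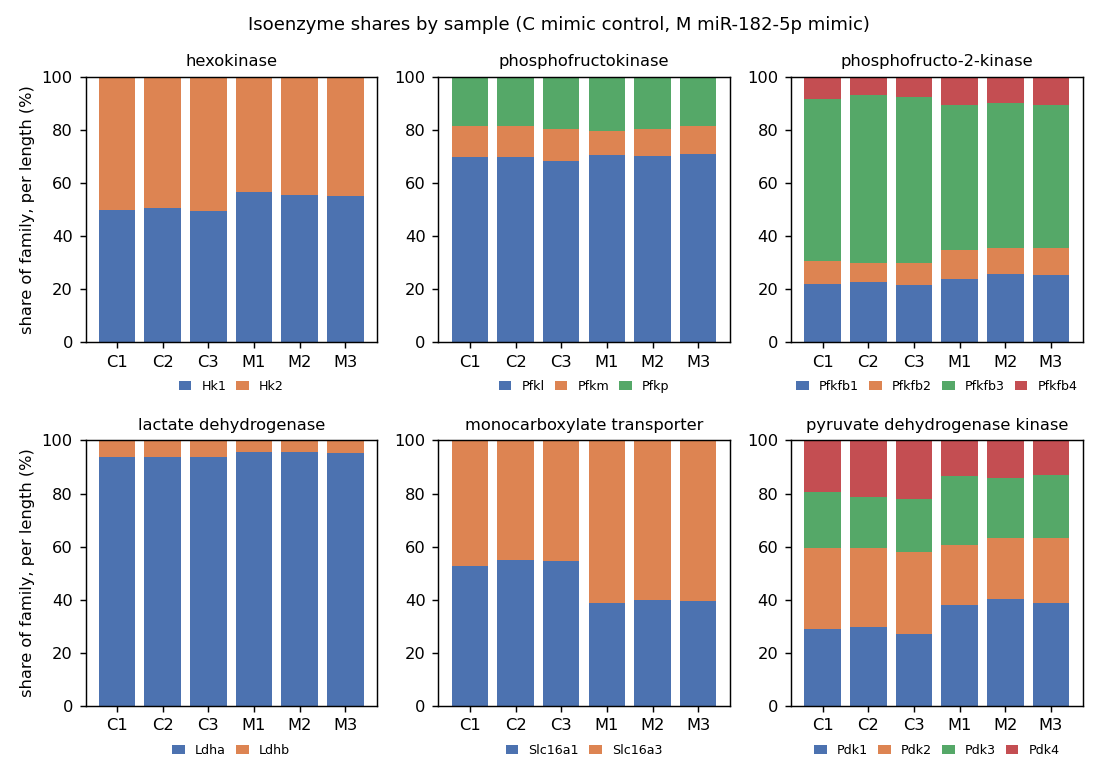
Share of each isoenzyme in the length-scaled counts of its family (y axis, percent) in mimic control samples C1 to C3 and mimic samples M1 to M3 (x axis), stacked to 100. The share of Slc16a3 is 44.9% to 47.4% in C1 to C3 and 59.98% to 61.4% in M1 to M3, and that of Pdk1 27.0% to 29.5% and 37.8% to 40.3%.

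Of the 5 genes that take pyruvate into mitochondrial metabolism or draw on it afterwards, 4 fell, against 23.5% of all genes tested. Pdha1 and Pdhb encode the alpha and beta subunits of the first enzyme of pyruvate dehydrogenase, and Dlat its acetyltransferase core. Pdha1 was at 401, 428 and 388 CPM in the control samples and 313, 325 and 343 CPM in the mimic samples (log2 fold change -0.31, edgeR adjusted p = 1.93e-05). Pdhb was at 173, 193 and 168 CPM and at 139, 147 and 151 CPM (log2 fold change -0.29, edgeR adjusted p = 0.000164). Dlat was at 254, 268 and 258 CPM and at 221, 228 and 238 CPM (log2 fold change -0.18, edgeR adjusted p = 0.000456). The groups were apart for each of the 3 subunits, and mimic sample 1 was the lowest of its group and control sample 2 the highest in all 3. Per length their sum went from 325 ± 17.6 to 268 ± 11.6 CPM per kb (SD, n = 3).

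Pcx encodes pyruvate carboxylase (chr19:4510472-4621752, plus strand). It was at 1213, 1228 and 1138 CPM in the control samples and at 595, 667 and 702 CPM in the mimic samples. No sample of the mimic group came near the lowest control sample, and the log2 fold change was -0.87 ± 0.050 (SE, edgeR adjusted p = 7.39e-09). The level fell by 45.1%, the largest fall of the 32 genes tested. Over the same samples 9 of the 12 adipocyte markers fell, with log2 fold changes from -0.31 (Pparg) to -0.85 (Retn), Lep rose (0.37), and Plin1 and Lipe did not pass (-0.06 and -0.09). The part of the adipocyte markers in the fall of Pcx and of the pyruvate dehydrogenase genes was not tested. Pck1, phosphoenolpyruvate carboxykinase, which starts glyceroneogenesis in fat, was at 7.35, 7.96 and 7.36 CPM and at 6.61, 8.27 and 8.75 CPM. Its groups overlapped and its log2 difference was 0.06 with a 95% interval of -0.17 to 0.28.

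Levels of different genes were compared per kilobase of the longest transcript. The order is that of counted reads and can depend on the length used. Levels of Gapdh, Eno1, Pgk1 and Pgam1 can understate their mRNA, so their true places in it are not known. In the mimic control Aldoa was highest at 1087 ± 43.3 CPM per kb, followed by Ldha at 519.7 ± 10.97, Pcx at 288 ± 11.7 and Tpi1 at 247 ± 10.4. In the mimic Pcx, at 158 ± 13.2, lay below Tpi1, at 272 ± 6.15. Pdha1, Pdhb and Gpi1 followed in the control at 142 ± 7.04, 118 ± 8.93 and 112 ± 5.29 CPM per kb, and Pdhb and Gpi1 did not differ beyond their spread. Slc16a3 went from 21.5 ± 1.82 to 42.3 ± 1.32 CPM per kb. The lowest levels apart from Gapdh and Eno1 were those of Aldoc at 1.203 ± 0.194 and Pck1 at 2.84 ± 0.133 CPM per kb in the control.

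Promoters were searched because many glycolytic genes are known targets of the oxygen-sensing HIF factors, whose binding motif has the core ACGTG. The 300-base RefSeq promoters on GRCm38.p6 gave 52 promoters for the 33 genes. ACGTG on either strand was found in 22 of the 52 promoters (42.3%) and in 25.1% of the 11827 promoters of genes tested. By gene it was found for 18 of 33 (54.5%), against 29.4% of 9226 genes tested. Of the members that rose 8 of 13 held it, of those that fell 5 of 11, and of those that did not pass 5 of 8. CACGTG, which contains ACGTG on both strands, was found for 7 of 33 genes (21.2%, against 11.9% of the genes tested), and GCGTG, the other common HIF core, for 22 of 33 (66.7%, against 56.2%). A match is a run of letters and not a bound site.

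A promoter each of Slc16a3, Ldha and Pcx is printed, for the member that rose most, the more abundant lactate dehydrogenase gene and the member that fell most. These hold 2, 5 and 3 matches of ACGTG counting both strands. Ldha and Pcx each have another promoter in RefSeq, at chr7:46846832-46847131 and chr19:4594069-4594368, that holds none and is not printed. Capitals mark ACGTG or its reverse complement CACGT. All lie on the plus strand, at chr11:120948817-120949116, chr7:46845554-46845853 and chr19:4510222-4510521.
Slc16a3: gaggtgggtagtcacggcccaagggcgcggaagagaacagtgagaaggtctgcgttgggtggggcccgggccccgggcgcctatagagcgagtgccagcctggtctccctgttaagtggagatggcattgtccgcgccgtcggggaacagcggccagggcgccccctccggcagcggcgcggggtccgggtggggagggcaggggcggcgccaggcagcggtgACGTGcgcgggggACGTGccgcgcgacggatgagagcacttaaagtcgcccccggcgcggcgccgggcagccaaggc
Ldha: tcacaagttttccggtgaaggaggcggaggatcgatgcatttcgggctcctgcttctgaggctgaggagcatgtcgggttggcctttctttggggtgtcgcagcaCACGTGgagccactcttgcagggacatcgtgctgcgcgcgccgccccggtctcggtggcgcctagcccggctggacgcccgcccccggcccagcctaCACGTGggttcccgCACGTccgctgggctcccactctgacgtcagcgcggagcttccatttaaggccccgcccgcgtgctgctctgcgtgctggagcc
Pcx: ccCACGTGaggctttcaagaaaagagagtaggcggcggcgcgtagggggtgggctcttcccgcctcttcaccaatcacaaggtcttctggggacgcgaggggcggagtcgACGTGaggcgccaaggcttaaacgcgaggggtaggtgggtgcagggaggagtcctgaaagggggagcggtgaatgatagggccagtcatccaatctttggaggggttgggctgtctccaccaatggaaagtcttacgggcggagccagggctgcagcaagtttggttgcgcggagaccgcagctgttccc

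The other genes of glycolysis and pyruvate metabolism were read as a list of 42 symbols, of which 38 were listed and 29 tested. Of these, 4 were higher (13.8%) and 12 lower (41.4%), against 23.2% and 23.5% of all genes tested. The median log2 fold change of the 29 was -0.12. Bpgm, which makes 2,3-bisphosphoglycerate, rose from 17.0 ± 0.356 to 31.1 ± 0.933 CPM (log2 fold change 0.87, edgeR adjusted p = 1.45e-08) and was the 1 gene of the list both higher by 1.5-fold and past the adjusted p, while 3 were lower by those limits. Without mimic sample 1, 2 genes were higher by both limits. Gpd2, the mitochondrial glycerol-3-phosphate dehydrogenase, fell from 151 ± 5.11 to 67.0 ± 3.34 CPM (log2 fold change -1.18, edgeR adjusted p = 2.33e-11). Brp44l, an older symbol of the mitochondrial pyruvate carrier Mpc1, and Me1, the cytosolic malic enzyme, fell by 0.69 and 0.63 on the log2 scale. The following genes were picked after their values were seen. Pkm2, the symbol under which pyruvate kinase is listed, rose from 979 ± 17.5 to 1284 ± 24.8 CPM (log2 fold change 0.39, edgeR adjusted p = 1.15e-07). Brp44, an older symbol of the carrier subunit Mpc2, fell by 0.58 on the log2 scale (edgeR adjusted p = 2.49e-07), and Slc2a4, the insulin-responsive glucose transporter GLUT4, fell by 0.43 (edgeR adjusted p = 0.000111), whereas Slc2a1 above rose. Of further genes of the pyruvate dehydrogenase complex, Pdhx had a log2 fold change of -0.15 (edgeR adjusted p = 0.00282). Dld did not pass, at -0.06 (edgeR adjusted p = 0.151).

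In the pentose phosphate pathway, which branches from glucose-6-phosphate, 5 of 8 genes fell (62.5%) and none rose. The falls ranged from H6pd at -0.10 to Tkt at -0.31 on the log2 scale. Among all genes tested 23.2% rose and 23.5% fell. These lists too were chosen with earlier results of these data known. Of 18 tested genes known to respond to low oxygen, 11 rose (61.1%) and 4 fell (22.2%), with a median log2 fold change of 0.18. Ddit4, an inhibitor of mTOR signalling, rose most (77.4 ± 4.26 to 111 ± 5.95 CPM, log2 fold change 0.52). Higd1a, a mitochondrial protein, fell most (11.4 ± 0.0913 to 7.87 ± 0.759 CPM, log2 fold change -0.53). None of these reached 1.5-fold in either direction, although 1 did without control sample 1, control sample 2 or mimic sample 2 in the higher direction and without mimic sample 1 in the lower direction. Of 18 regulators of these pathways 3 rose (16.7%) and 6 fell (33.3%). Hif1an, the asparaginyl hydroxylase that curbs HIF activity, rose from 56.5 ± 1.72 to 80.1 ± 1.33 CPM (log2 fold change 0.50). Epas1, which encodes HIF-2alpha, fell from 62.8 ± 0.923 to 29.0 ± 0.977 CPM (log2 fold change -1.12, edgeR adjusted p = 1.17e-10). Picked after their values were seen, Hif1a, which encodes HIF-1alpha, rose by 0.30 on the log2 scale (edgeR adjusted p = 5.84e-06), and Txnip, a glucose-induced brake on glucose uptake, fell by 0.47 (edgeR adjusted p = 8.64e-08).

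**Figure D5:**
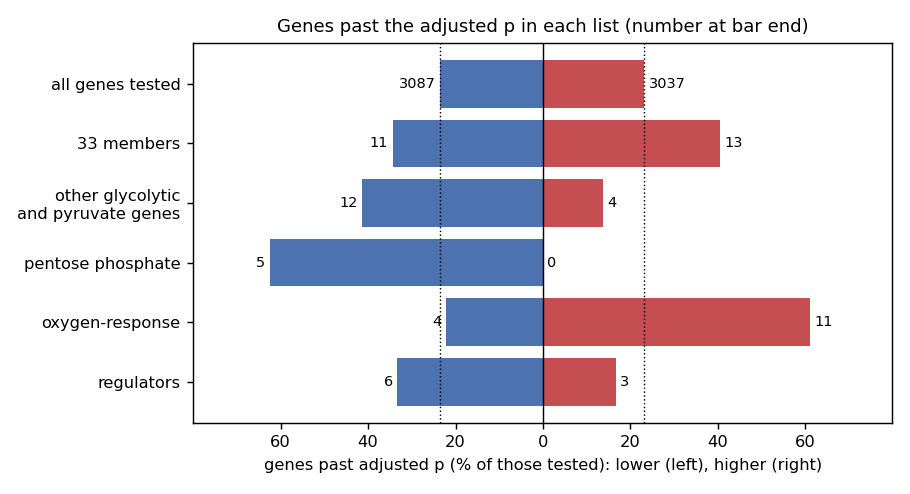
Share of tested genes past the adjusted p (x axis, percent), lower with the mimic to the left and higher to the right, for all genes tested, the 33 members and the 4 other lists, with the number of genes at each bar end and dotted lines at the shares of all genes (23.2% and 23.5%). The bars of the members reach 40.6% higher and 34.4% lower, and those of the oxygen-response genes 61.1% and 22.2%.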

How the data were processed

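RNA was sequenced from 3 mimic control and 3 miR-182-5p samples as poly(A)-selected, strand-specific libraries. Each deposited file holds unnormalised counts of reads for 22609 gene symbols, followed by the HTSeq tallies. The submitters' processing notes name bcl2fastq, TopHat2, HTSeq and mm9, without versions, and whether counting used the strand is not given in the sources used here. Tally lines, with 12.7% to 13.0% of reads outside genes, were left out of library sizes. Counts were tested as deposited in R 4.3.3 with edgeR 4.0.16 (glmQLFit and glmQLFTest after TMM scaling and filterByExpr at its minimum of 10 counts, two-sided, no block), adjusted over 13117 genes. Standard errors were the log2 fold change divided by the root of F.

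Shares of isoenzymes used the longest GENCODE M21 transcript, with an exact permutation test. Gene positions, transcripts, 3′-UTRs and copies come from GENCODE M21 (GRCm38), and the miRNA and promoters from RefSeq (GRCm38.p6), which is another build than that of the files, so sequences were joined by symbol only. All 33 members had a promoter entry. Copies are 50-base windows on the same strand found in another gene.

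All 33 members were named. Of the other lists, genes past 1.5-fold and the adjusted p and the genes with the largest and smallest called change were named, and exceptions are marked. The members and lists were chosen with earlier results of these data known. Alternatives were DESeq2 1.42.0, limma-voom (limma 3.58.1), other size factors, other filters, other fold limits, a replicate block, other lengths and leaving out each sample.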

Additional observations from a re-analysis of the deposited data

How the results depend on the processing

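Over 13 alternatives, 400 of 416 log2 fold changes of the tested members kept their direction and their side of the adjusted p, 9 lost it (Pfkfb4, Aldoc, Eno3 and Ldha, each only on leaving out a library), 4 gained it (Aldoa), and 3 turned direction among genes that did not pass: Gpi1 at -0.0035 without control sample 3 (range -0.0035 to 0.064 when libraries were left out), Pfkm at 0.055 without mimic sample 1 (-0.074 to 0.055) and Pck1 at -0.023 without mimic sample 3 (-0.023 to 0.17). Members higher by 1.5-fold were 2, 9 at a 1.2-fold limit, 13 with no fold limit, and 1 to 2 when libraries were left out. Members lower by 1.5-fold were 3, 4 with upper-quartile factors, 9 at a 1.2-fold limit, 11 with no fold limit, and 2 to 4 when libraries were left out. Same-numbered samples did not deviate together (correlations of -0.18 to -0.042), and with the replicate number as a block 13 members were higher and 11 lower, with 32 of 32 tested members in the same direction and on the same side of the threshold. With exon-union lengths the difference in share, mimic minus control, was 2.27 percentage points for Pfkl, -0.0511 for Aldoa, 2.54 for Ldha and -8.93 for Pdk4, and with counts not scaled by length it was -0.0572 for Aldoa, 1.31 for Ldha and -8.64 for Pdk4, against 1.24, -0.0319, 1.77 and -7.39 by the longest transcript. These alternatives differ in the lengths alone. Few reads underlie Aldoc, Eno3 and Pck1, and fewer still were counted on Gapdh and Eno1.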
